A study of Caenorhabditis elegans with 71 samples.

Results

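The 5 genes described here, srbc-15 (F15E11.10), srw-85 (C25F9.1), pqn-60 (R11G11.7), E01G4.5 and Y50D4B.4, were picked by name out of 19083 named genes of the nematode Caenorhabditis elegans because their levels differed between the populations of a larval time course. Their differences between populations are therefore given as a description, with no test. Poly(A) RNA of whole larvae was sequenced after starved, arrested first-stage larvae had been put on plates with OP50 bacteria. The study followed transcripts through the larval stages in wild type at 2 temperatures and in a mutant of lin-4, a microRNA that times larval cell fates. It has 71 libraries from 4 populations, and each library is 1 time point of 1 population.

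The population DH2 was wild type (N2) at 20C, with 20 libraries from 0 to 38 h at intervals of 2 h. DH5 was an independent wild-type (N2) population at 20C, with 6 libraries from 38 to 48 h. DH3 was wild type (N2) at 25C, with 20 libraries from 0 to 28.5 h at intervals of 1.5 h. DH4 was the lin-4(e912) mutant at 20C, described as a knockout by the submitters, with 25 libraries from 0 to 48 h. The mutant genotype and 25C were each carried by a single population, so neither can be told apart from the population. Wild type at 20C was carried by both DH2 and DH5, which share only the 38 h time point. The times within a population are its only replication, so each SD below measures the spread between times. Each SE comes from a limma fit, in which the spread of a gene is drawn toward that of other genes. For trends and cycles that spread is between times. For the change on leaving arrest it is between 3 populations, which differ in genotype or temperature. An SE can therefore be smaller or larger than the values of the gene alone would give. The RNA of lin-4 was not analysed.

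srbc-15 and srw-85 belong to the srbc and srw families, 2 of the many families of serpentine, seven-pass chemoreceptor-like proteins of nematodes, many of which are made in a few sensory neurons. The pqn genes were named for a domain rich in glutamine and asparagine, like that of prions. E01G4.5 is known as a target of the pathway of endogenous small interfering RNAs made with the Argonaute ERGO-1, which lowers the RNA of recently duplicated and poorly conserved genes. No role is given here for Y50D4B.4. In the WBcel235 annotation, used for names and gene order only, srbc-15 is a pseudogene, pqn-60 now has the symbol srlf-35, and the other 3 are protein-coding. E01G4.5 lies on chromosome II and the others on chromosome V, and no other annotated gene overlaps any of them.

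Values are RPKM, a read density corrected for gene length and sequencing depth, as the authors deposited them, and an empty cell of the table was read as 0. Relative depth, read from the steps between low values, spanned 2.97-fold over the 71 libraries, and its median relative to all libraries was 0.772 in DH2, 0.924 in DH3, 1.13 in DH4 and 1.18 in DH5. The markers of 7 tissues were all present, with none at 0 throughout. The summed level of 8 neuron markers had a median of 583 RPKM in DH2, 533 RPKM in DH3, 492 RPKM in DH4 and 272 RPKM in DH5. The summed level of 3 germline markers had a median of 40.0 RPKM in DH2, 65.5 RPKM in DH3, 67.8 RPKM in DH4 and 303 RPKM in DH5. DH5 covers only 38 to 48 h, so age and population are not separated in these medians. Within DH2 alone the neuron sum ran from 265 to 1512 RPKM and the germline sum from 17.7 to 222.5 RPKM. The part of tissue makeup in the results was not tested, and in RNA of whole larvae fewer cells of a type and less RNA per cell cannot be told apart.

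**Figure D1:**
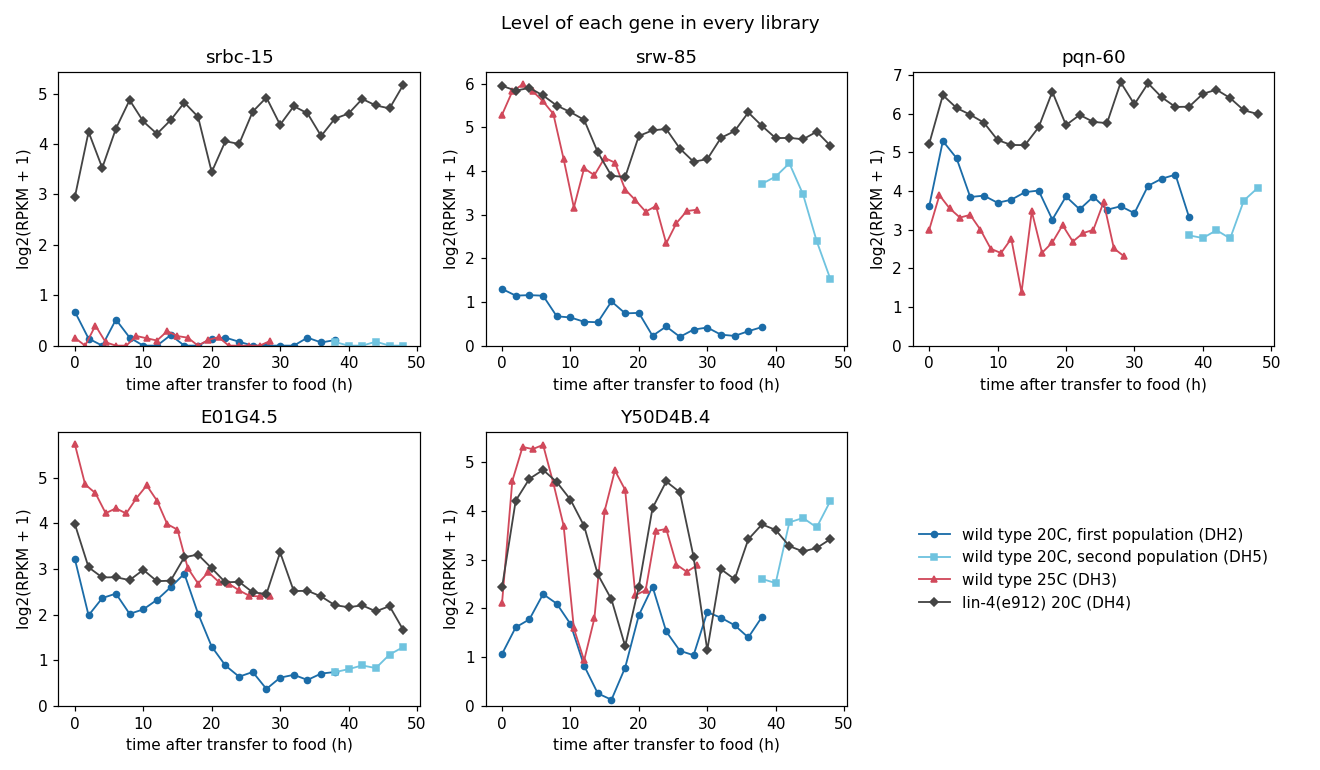
Level of each gene as log2(RPKM + 1), on the vertical axis, against hours after transfer to food, with 1 panel per gene and 1 point per library, and lines that join the times of a population. srbc-15 lay near 0 outside the lin-4(e912) population, srw-85 lay lowest in DH2 at every time, and Y50D4B.4 went up and down with time in 3 populations.

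srbc-15, the pseudogene of the chemoreceptor-like srbc family, was at a readable level in the lin-4(e912) population and close to no reads elsewhere. In DH4 it ran from 6.72 to 35.0 RPKM with a median of 21.7 RPKM, which corresponds to 80 to 632 reads a library. In DH2 it ran from 0 to 0.594 RPKM with a median of 0.0498 RPKM, and in DH3 from 0 to 0.318 RPKM with a median of 0.0686 RPKM. In DH5 the highest of 6 libraries was 0.0559 RPKM and the median was 0. Its cell was empty in 9 of 20 DH2 libraries, 8 of 20 DH3 libraries and 4 of 6 DH5 libraries, and in none of the 25 DH4 libraries. The other libraries of DH2, DH3 and DH5 held at most 6 reads, and 3 reads were worth 0.134 to 0.398 RPKM, so most wild-type values lie where no level can be told from 0.

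The lowest srbc-15 value of DH4 was the arrested larvae at 0 h, at 6.72 RPKM, and every DH4 library lay above every wild-type library. From 6 to 38 h, at 17 equal times, log2(RPKM + 1) was higher in DH4 than in DH2 by 4.33 ± 0.42 (SD, n = 17 times), with the single times between 3.31 and 4.92. Against DH5, at 6 equal times from 38 to 48 h, DH5 was lower than DH4 with a difference of −4.75 ± 0.26 (SD, n = 6 times). The median difference over all genes was 0.09 for DH4 minus DH2 and −0.12 for DH5 minus DH4. The mutant population thus held srbc-15 RNA at a level that no library of the 3 wild-type populations reached. Within DH4 its trend from 6 to 38 h was 0.06 ± 0.29 log2 (SE, adjusted p = 0.871), which did not pass the threshold. With all time points, which add the low value at 0 h and the times after 38 h, it was 0.97 log2 (adjusted p = 0.00388), past the threshold on p and just under the size of 1 log2, so the flat trend holds only for that window.

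pqn-60 was likewise highest in the lin-4(e912) population, but it was read in all 71 libraries. In DH4 it ran from 35.3 to 111 RPKM with a median of 66.8 RPKM. In DH2 it ran from 8.57 to 38.1 RPKM with a median of 13.4 RPKM, in DH5 from 5.82 to 15.8 RPKM with a median of 6.56 RPKM, and in DH3 from 1.60 to 13.8 RPKM with a median of 6.74 RPKM. The 3 wild-type populations overlapped each other, with the 25C population and DH5 close in median. From 6 to 38 h the DH4 and DH2 ranges were apart, and the difference was 2.18 ± 0.61 log2 (SD, n = 17 times), with a median ratio of 4.47. Over all times they touched, because DH2 reached 38.1 RPKM (2 h) while DH4 stood at 36.2 RPKM (0 h) and 35.3 RPKM (14 h).

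The pqn-60 difference between DH4 and DH2 varied from time to time. From 6 to 16 h it lay between 1.22 log2 (14 h) and 2.13 log2 (6 h), and from 18 to 38 h between 1.75 log2 (36 h) and 3.30 log2 (18 h), so the ranges of early and late times overlap. Within DH4 the level rose over the window by 1.24 ± 0.22 log2 (SE, adjusted p = 0.000214), while in DH2 the fitted change was 0.00 ± 0.25 log2 (SE, adjusted p = 0.989). The difference between those trends was not tested. With all time points the DH4 rise was 0.82 log2, which is under the size of 1 log2 that a call needed. In DH3 the level was lower than in DH2 by a difference of −0.99 log2, with overlapping ranges. In DH5 minus DH4 it was −3.09 ± 0.77 log2 (SD, n = 6 times), and within DH5 the value was 6.21 RPKM at 38 h, then 15.8 RPKM at 48 h, with a trend of 1.26 ± 0.37 log2 (SE, adjusted p = 0.0608) that did not pass.

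srw-85, of the chemoreceptor-like srw family, had the opposite arrangement, since 1 wild-type population stood low and the other 3 high. In DH2 it ran from 0.150 to 1.46 RPKM with a median of 0.456 RPKM, or 4 to 54 reads. In DH5, also wild type at 20C, it ran from 1.88 to 17.1 RPKM with a median of 11.1 RPKM. In DH3 it ran from 4.07 to 62.3 RPKM with a median of 14.9 RPKM, and in DH4 from 13.6 to 61.0 RPKM with a median of 28.9 RPKM. Every DH2 library lay below every library of the other 3 populations, although the nearest, DH5 at 48 h with 1.88 RPKM, came close to DH2 at 0 h with 1.46 RPKM. At 38 h, the time that both 20C wild-type populations share, srw-85 was at 0.343 RPKM in DH2 and at 12.1 RPKM in DH5, with 1 library each.

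The srw-85 difference for DH4 minus DH2 was 4.28 ± 0.60 log2 (SD, n = 17 times), with a median ratio of 74.6, and it was smallest at 16 h, at 2.88 log2. For DH3 minus DH2 the difference of means was 3.31 log2 over 17 libraries each. These comparisons share the DH2 libraries, so the low level of DH2 enters both. For DH5 minus DH4 the difference was −1.60 ± 0.97 log2 (SD, n = 6 times), and it widened to −3.06 log2 at its largest. DH2 and DH5 carried the same strain and temperature labels and stood on opposite sides of this difference. In 46 of 71 libraries the srw-85 value was not a whole number of reads within a tolerance of 0.01. Each of the other 4 genes had 1 to 3 such libraries. For srw-85 these were 1 of 20 libraries in DH2, 17 of 20 in DH3, 24 of 25 in DH4 and 4 of 6 in DH5. The size of 1 read was set to make at least 80% of the DH2 libraries with reads whole, so the low number in DH2 is partly fixed by that choice. How reads that match more than 1 gene were counted is not stated, so the level of srw-85 is uncertain, also in the populations where it is high.

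The levels of srw-85 also moved with time inside the populations in which it was high. In DH3 it fell, with 55.9 RPKM at 4.5 h against 7.66 RPKM at 28.5 h and a fitted change of −2.61 ± 0.39 log2 (SE, adjusted p = 4.72e-05). In DH4 the fitted change was −0.44 ± 0.35 log2 (SE, adjusted p = 0.315), with values of 13.6 RPKM (18 h) and 39.6 RPKM (36 h) in between. With all time points it was −0.97 log2 (adjusted p = 0.0107), which passed on p and not on size. In DH5 it had 17.1 RPKM (42 h) and 1.88 RPKM (48 h), where the fitted change of −2.30 ± 0.64 log2 (SE, adjusted p = 0.0539) did not pass. In DH2 its mean was under 1 RPKM, below the filter of the tests.

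**Figure D2:**
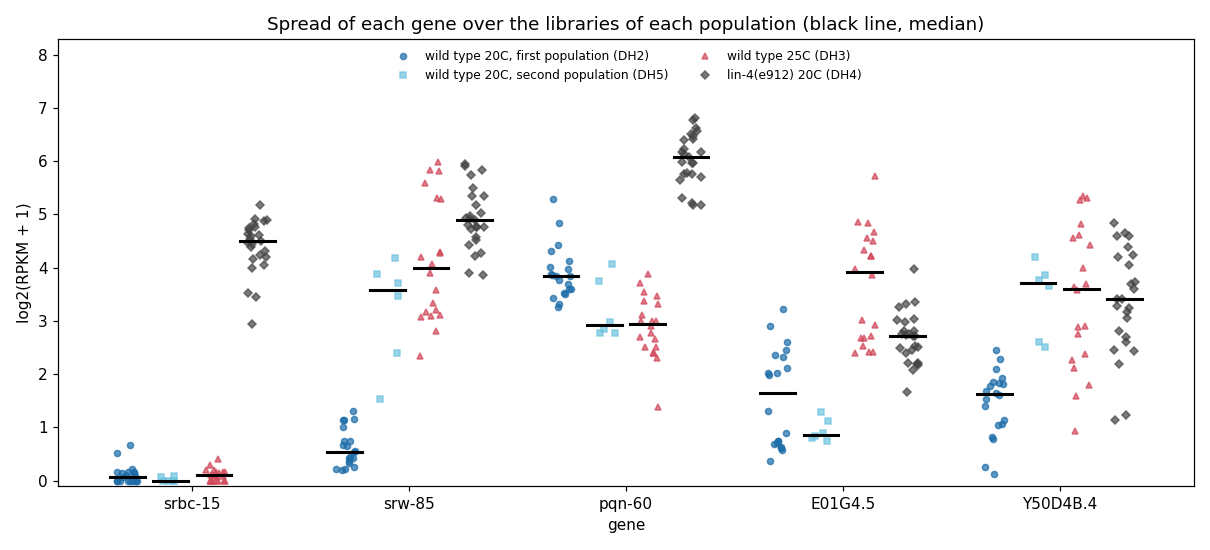
Every library of each population as a point, by gene, on a vertical axis of log2(RPKM + 1), with a black line at the median of the population. DH4 stood above all other libraries for srbc-15 and DH2 below all others for srw-85, while populations overlapped for E01G4.5 and Y50D4B.4.

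E01G4.5, the ERGO-1 pathway target, was highest at 25C, intermediate in the mutant and lowest in wild type at 20C late in the course. In DH3 it ran from 4.27 to 52.1 RPKM with a median of 14.2 RPKM. In DH4 it ran from 2.17 to 14.8 RPKM with a median of 5.59 RPKM, in DH2 from 0.293 to 8.29 RPKM with a median of 2.21 RPKM, and in DH5 from 0.669 to 1.45 RPKM with a median of 0.812 RPKM. These ranges overlap for DH4 with DH2 and with DH3, and each population was highest in its arrested larvae where those were sampled. At 38 h it had nearly equal values of 0.673 RPKM in DH2 and 0.669 RPKM in DH5, while DH4 had 3.62 RPKM.

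The order of E01G4.5 was already in place in arrested larvae, with 52.1 RPKM in DH3, 14.8 RPKM in DH4 and 8.29 RPKM in DH2 at 0 h, 1 library each. Its difference between DH4 and DH2 was not fixed. It lay between 0.14 and 0.87 log2 from 6 to 16 h and between 1.29 and 2.75 log2 from 18 to 38 h, with a mean of 1.37 ± 0.76 log2 (SD, n = 17 times). In DH2 the level fell by a fitted change of −2.44 ± 0.36 log2 (SE, adjusted p = 2.98e-05), with most of the drop between 16 h (6.45 RPKM) and 22 h (0.848 RPKM). In DH3 it fell by a like size, −2.61 ± 0.31 log2 (SE, adjusted p = 3.86e-06), and in DH4 the fitted change of −0.39 ± 0.21 log2 (SE, adjusted p = 0.131) did not pass. With all time points the DH4 change was −1.27 log2 (adjusted p = 1.56e-05) and was called. Whether the trends of the populations differ was not tested.

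Y50D4B.4 had a lower median in DH2 than in the other populations, whose medians were alike. DH5 covers only 38 to 48 h, so its median is from other ages than those of the other populations. In DH2 it ran from 0.0917 to 4.45 RPKM with a median of 2.10 RPKM, in DH5 from 4.73 to 17.4 RPKM with a median of 12.1 RPKM, in DH3 from 0.907 to 39.9 RPKM with a median of 11.2 RPKM, and in DH4 from 1.21 to 27.6 RPKM with a median of 9.68 RPKM. DH5 lay above every DH2 library, though mostly at later times, while the ranges of DH3 and DH4 overlapped that of DH2. At 38 h, the only time that DH2 and DH5 share, the level was 2.54 RPKM in DH2, 5.08 RPKM in DH5 and 12.2 RPKM in DH4. DH5 minus DH2 was 0.78 log2 at that time, which is under 1 log2, with 1 library each. For DH5 minus DH4 the difference was 0.03 ± 0.89 log2 (SD, n = 6 times), with DH5 higher at 4 of 6 times.

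Y50D4B.4 went up and down with time. In DH2 its maxima were 3.90 RPKM (6 h), 4.45 RPKM (22 h) and 2.79 RPKM (30 h), with a low of 0.0917 RPKM at 16 h that rests on 3 reads. In DH4 the maxima were 27.6 RPKM (6 h), 23.3 RPKM (24 h) and 12.2 RPKM (38 h), with lows of 1.34 RPKM (18 h) and 1.21 RPKM (30 h). In DH3 the maxima were 39.9 RPKM (6 h), 27.4 RPKM (16.5 h) and 11.4 RPKM (24 h), with a low of 0.907 RPKM at 12 h. The difference for DH4 minus DH2 was 1.82 ± 1.07 log2 (SD, n = 17 times) and positive at 16 of 17 times, with a maximum of 3.25 log2 at 26 h and a single reversal of −0.78 log2 at 30 h. At 30 h DH2 was at a maximum and DH4 at a low. The SD of the DH4 minus DH2 difference was the largest of the 5 genes, against a median SD of 0.32 log2 over 12855 genes. Equal hours need not be equal points of these rises and falls, and the part of this in the SD was not tested.

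**Figure D3:**
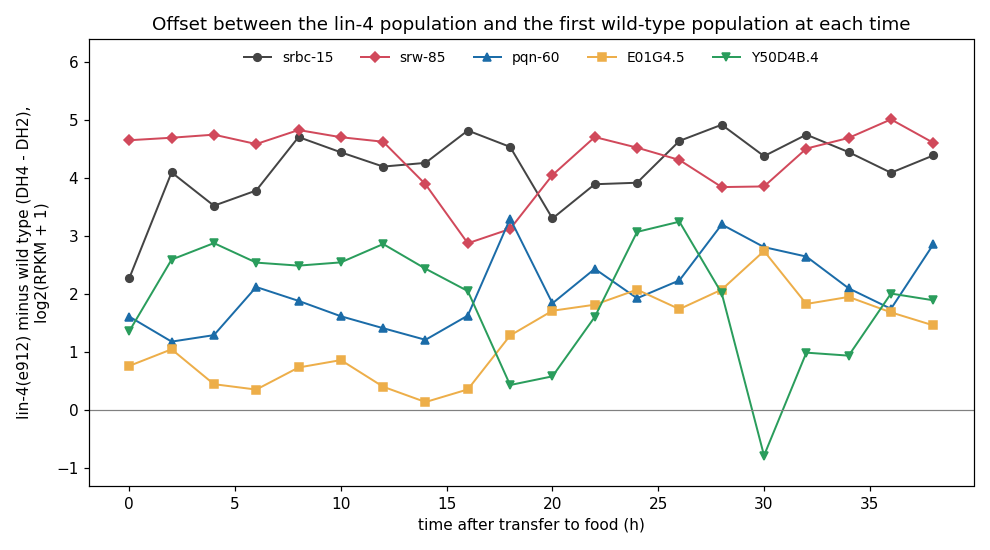
Difference in log2(RPKM + 1) between lin-4(e912) (DH4) and the first wild-type population (DH2) on the vertical axis, at each equal time in hours on the horizontal axis, 1 line per gene and 1 library of each population per point. The lines of srbc-15 and srw-85 stayed above 2 log2 throughout, that of E01G4.5 was higher after 16 h than before, and that of Y50D4B.4 crossed 0 at 30 h.

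A gene was counted as apart in a comparison when the ranges of the libraries compared did not overlap and the means differed by at least 1 log2. For DH4 minus DH2, 3 of the 5 genes were apart and higher, namely srbc-15, srw-85 and pqn-60, beside 0.0856% of 12855 genes that were higher and 0.0545% that were lower. For DH3 minus DH2, srw-85 was the 1 of 4 genes above the filter that was apart, being higher, beside 0.349% of 12889 genes that were higher and 0.0233% that were lower. For DH5 minus DH4, 4 of the 5 were apart and lower, all but Y50D4B.4, beside 0.941% of 13077 genes that were lower and 0.574% that were higher. Since the genes were picked for these differences, nothing is read from the counts. At 38 h, DH5 minus DH2 was at least 1 log2 higher in 32 of 12275 genes (0.261%), of which srw-85 with 3.28 log2 was 1, and at least 1 log2 lower in 1.28%, with none of the 5. Y50D4B.4 stood at 0.78 log2 there. Most of the differences were already present in arrested larvae at 0 h, with 1 library each. For DH4 minus DH2 at 0 h, 4 of the 5 genes were at least 1 log2 higher, all but E01G4.5 with 0.77 log2, beside 4.73% of 13709 genes that were higher and 2.21% that were lower. For DH3 minus DH2 at 0 h, 3 of the 4 genes above the filter were at least 1 log2 higher, srw-85 with 3.99 log2, E01G4.5 with 2.52 log2 and Y50D4B.4, beside 2.25% of 13406 genes that were higher and 6.28% that were lower.

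Over the whole of the series, few genes separated a population from the other 3 in every library. Of 13205 genes with a mean of at least 1 RPKM, DH4 lay above all other libraries in 4 (0.0303%), which were srbc-15, F56A4.9, Y19D10A.7 and vps-35, a subunit of the retromer complex that sorts membrane proteins. Outside DH4 the population medians of srbc-15, F56A4.9 and Y19D10A.7 were at most 0.0686, 0.224 and 0.201 RPKM. These genes thus passed the filter only through DH4, where they are high. F56A4.9 and Y19D10A.7 had nearly equal values, so they may not be separate cases. DH4 lay below all others in 2 (0.0151%), B0001.5 and the nuclear hormone receptor gene nhr-131. DH2 lay below all others in 2 (0.0151%), srw-85 and the F-box gene fbxa-156, whose median was 1.86 RPKM in DH2 and 7.47 RPKM in DH5. DH3 lay above all others in 8 genes (0.0606%), and DH5 lay above in 4 (0.0303%) and below in 19 (0.144%), with none of the 5 among them.

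The change on leaving arrest, from 0 h to 6 h at 20C or to 4.5 h at 25C, is a contrast within populations, but its libraries were among those in view when the genes were chosen. Over DH2, DH3 and DH4, with the population as a block, 1 of the 5 rose and 1 fell, beside 8.86% of 13370 genes that rose and 10.1% that fell. Y50D4B.4 rose by 2.27 ± 0.37 log2 (SE, n = 3 populations, adjusted p = 0.00838), with 1.09 and 3.90 RPKM in DH2, from 3.31 to 37.5 RPKM in DH3 and from 4.39 to 27.6 RPKM in DH4. E01G4.5 had a change of −1.14 ± 0.19 log2 (SE, n = 3 populations, adjusted p = 0.00920), from 8.29 to 4.50 RPKM in DH2, from 52.1 to 17.7 RPKM in DH3 and from 14.8 to 6.06 RPKM in DH4. That fall did not pass without DH3 or without DH4, where the changes over the 3 sets of 2 populations ran from −1.34 to −0.96 log2, and without the block neither gene passed, with adjusted p = 0.242 for E01G4.5 and 0.0583 for Y50D4B.4. The changes of 0.05 ± 0.20 log2 for srw-85 and 0.44 ± 0.17 log2 for pqn-60 (SE, adjusted p = 0.846 and 0.0890) did not pass. srbc-15 was above the filter only through DH4, where it had 6.72 RPKM before and 18.8 RPKM after feeding, while DH2 and DH3 held 1 to 6 reads at these times, so its change over the 3 populations is not interpretable.

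Within populations, trends with time were called for E01G4.5 of 3 genes above the filter in DH2, where 9.45% of 12767 genes rose and 16.4% fell. In DH3 they were called for srw-85 and E01G4.5 of 4 genes, both falling, where 11.1% of 12980 genes rose and 16.7% fell. In DH4 a trend was called for pqn-60 alone of 5, rising, where 9.01% of 12857 genes rose and 15.5% fell. In DH5 it was called for Y50D4B.4 of 3 genes, with a rise of 1.65 ± 0.39 log2 (SE, n = 6 times, adjusted p = 0.0361), where 10.5% of 13322 genes rose and 2.81% fell. That call was lost in 5 of the 6 fits that left out 1 library, with rises between 1.39 and 1.81 log2.

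Cycling with the molts was tested as a cosine and sine pair at periods of 11.25 h in DH2, 7.75 h in DH3 and 12 h in DH4. The 12 h of DH4 is the upper end of the periods scanned, and a scan to 16 h gave 14 h. Y50D4B.4 was called in DH4, with a peak-to-trough range of 2.15 ± 0.49 log2 (SE, adjusted p = 0.0245), and was the 1 of 5 genes called there beside 8.98% of 12857 genes. The call was lost without the library at 10, 16, 18, 24 or 26 h, over ranges of 1.77 to 2.40 log2, and with a linear trend in place of the spline (1.72 log2, adjusted p = 0.189). At 14 h its range was 2.43 ± 0.36 log2 (SE, adjusted p = 0.000627), and it was again the 1 gene called. Its ranges of 1.01 ± 0.31 log2 in DH2 and 1.86 ± 0.58 log2 in DH3 (SE, adjusted p = 0.0592 and 0.0730) did not pass, and none of the other genes above the filter passed there, beside 13.7% of 12767 genes in DH2 and 10.9% of 12980 in DH3. At an unadjusted p under 0.05, Y50D4B.4 was 1 of the 3 genes above the filter in DH2, beside 44.1% of all genes tested, and 1 of the 4 in DH3, beside 41.8%. In DH4, srw-85 had a range of 0.89 ± 0.15 log2 (adjusted p = 0.00883) and pqn-60 of 0.76 ± 0.20 log2 (adjusted p = 0.0425), which passed on p and stayed under the size of 1 log2.

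Genes of the same families or cosmids were read next. Of 54 srbc genes in the table, none besides srbc-15 was above the filter in any of the 3 comparisons, and srbc-15 was above it only through DH4, where it is high. Of 89 srw genes, 2 besides srw-85 passed the filter in DH4 minus DH2, and neither was apart. Of 67 pqn genes, 58 besides pqn-60 passed it and none was apart, with a median difference over the 59 of 0.03 log2 beside 0.09 log2 over all genes. None of the other 4 genes with E01G4 sequence names and none of the 3 other Y50D4B genes above the filter was apart in DH4 minus DH2. E01G4.5 and Y50D4B.4 were themselves not apart in that comparison. Of 5 listed targets of the ERGO-1 pathway, 4 were above the filter. K02E2.6 was apart and higher in DH3 than in DH2 by 1.09 ± 0.14 log2 (pooled SD), C44B11.6 had a difference of 0.81 ± 0.27 log2 and E01G4.7 one of 0.21 ± 0.26 log2, beside 2.03 ± 0.88 log2 for E01G4.5 and 0.08 log2 in the median of all genes. In DH4 minus DH2 the other 3 had 0.32, 0.27 and 0.28 log2, and none was apart. Of all genes, 0.0856% of 12855 were apart and higher in DH4 minus DH2, and 0.349% of 12889 in DH3 minus DH2. At such shares, finding none apart in lists of this size does not tell the lists from all genes.

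The neighbours of each gene on its chromosome were then read, 2 on each side. Of these 20 genes, 13 were above the filter in DH4 minus DH2. Beside 0.0856% of 12855 genes that were apart and higher, there were 2 here, the 2 genes after srbc-15. They were Y19D10A.7, with a difference of 2.39 log2 and medians of 0.161 RPKM in DH2 and 5.27 RPKM in DH4, and clec-209, of the C-type lectin family, with a difference of 3.08 log2 and medians of 5.36 RPKM in DH2 and 54.6 RPKM in DH4. Y19D10A.7 was above the filter only through DH4, as its highest DH2 value was 0.465 RPKM. For clec-209 the ranges overlapped over all times, where DH4 went down to 4.08 RPKM and DH2 up to 12.55 RPKM. In DH3 clec-209 had a median of 17.05 RPKM, with a difference of 1.78 log2 from DH2 and overlapping ranges. None of the neighbours of srw-85, pqn-60, E01G4.5 or Y50D4B.4 was apart in DH4 minus DH2, where E01G4.5 and Y50D4B.4 themselves were not apart either. Y50D4B.2, directly after Y50D4B.4, was higher in DH4 than in DH2 by 0.86 log2, with medians of 1.35 and 0.347 RPKM. None of the 11 neighbours above the filter was apart in DH3 minus DH2. In DH5 minus DH4, 3 of 12 were apart and lower, beside 0.941% of 13077 genes. They were Y19D10A.7 with −2.85 log2, clec-209 with −2.19 log2 and C25F9.11, next to srw-85, with −1.75 log2.

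A wider view of 10 genes on each side, chosen after the values were seen, showed more of the surroundings of srbc-15. All 10 genes after it had a higher mean in DH4 than in DH2, and the 8 above the filter were higher by 0.80 to 3.08 log2. Y19D10A.10 and srd-75 lay under the filter, with differences of 0.03 and 0.22 log2. Of the 14 genes above the filter on both sides, only Y19D10A.7 and clec-209 were apart. The median difference over all genes was 0.09 log2, and the share of all genes with such differences was not counted. Among the 8, Y19D10A.16 had medians of 3.49 RPKM in DH2 and 7.51 RPKM in DH4, close to 3.47 and 7.47 RPKM for C01B4.6. Y19D10A.7 was likewise close to F56A4.9, so reads may be shared and these values are uncertain alone. Of the 10 genes before srbc-15, 2 had a higher mean in DH4, and the 6 above the filter had differences of −0.38 to −0.28 log2. The 6 may not be independent. F15E11.1 and F15E11.14 had medians of 110.5 and 109.8 RPKM in DH2 and of 950.6 and 944.7 RPKM in DH3, so reads may be shared there too. On that side other genes had a higher median at 25C, such as F15E11.15, at a median of 166 RPKM in DH3 and 11.1 RPKM in DH2, and F15E11.12, at 93.4 RPKM in DH3 and 5.76 RPKM in DH2. None of these was apart, as F15E11.15 went down to 14.3 RPKM in DH3 and up to 61.2 RPKM in DH2. Near pqn-60, the fourth and the third gene before it, nhr-131 and T01G6.1, had an empty cell in all 25 DH4 libraries. In the other populations nhr-131 ran from 4.22 to 15.7 RPKM and T01G6.1 from 0.155 to 3.09 RPKM, with no empty cell. The 2 genes between these and pqn-60, str-256 and T01G6.10, had differences of −0.06 and 0.12 log2 at means under the filter.

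**Figure D4:**
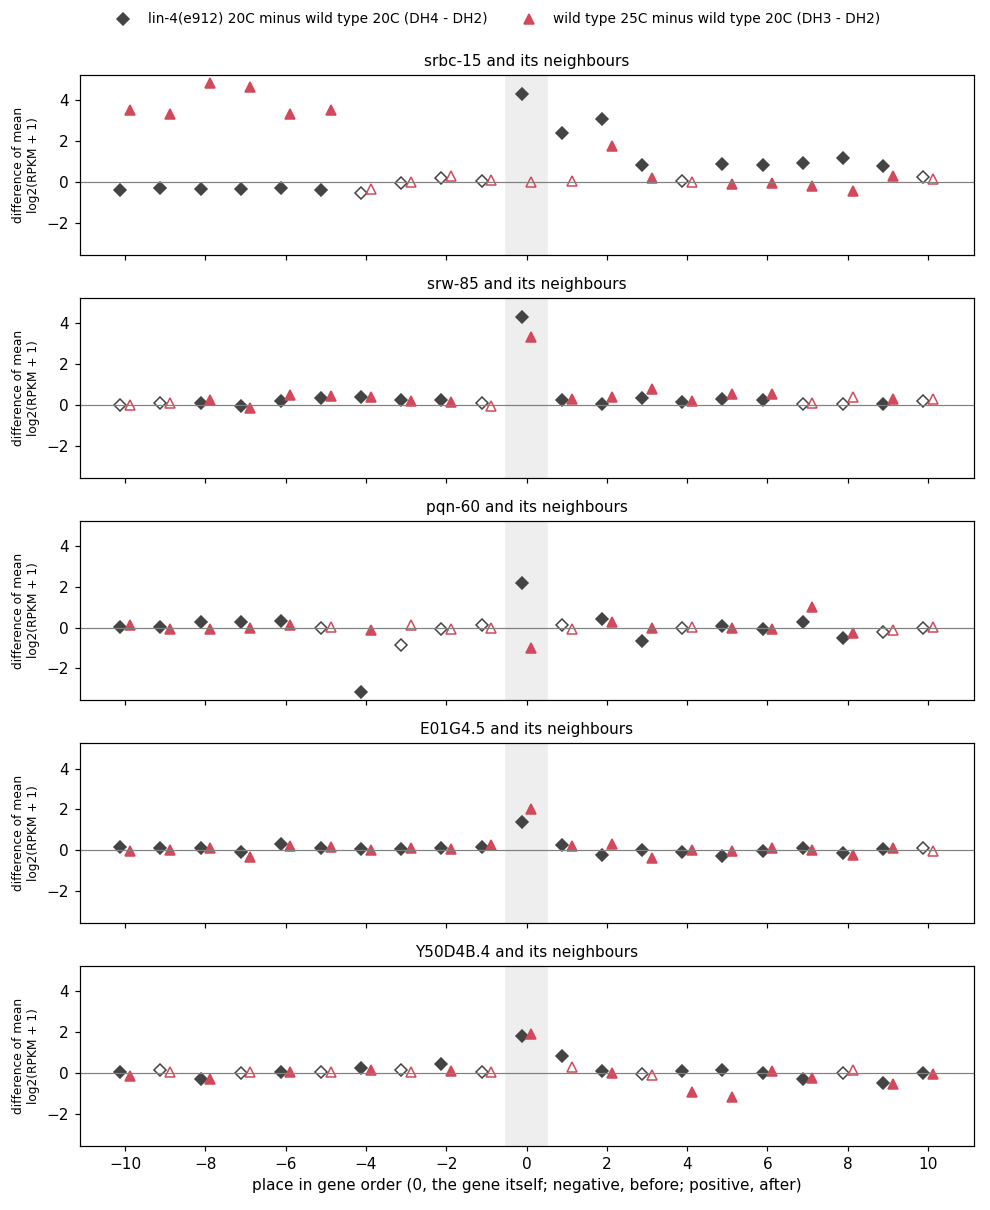
Difference of mean log2(RPKM + 1) on the vertical axis for each of the 5 genes (place 0, shaded) and the 10 genes before and after it in gene order on the horizontal axis, for lin-4(e912) minus wild type (diamonds) and 25C minus 20C (triangles), with open symbols for genes under the filter. Several genes after srbc-15 and the low point 4 places before pqn-60 stood out in lin-4(e912). The gene 3 places before pqn-60, T01G6.1, was also low there, at −0.86 log2 and under the filter. Several genes before srbc-15 stood out at 25C, up to 4.83 log2 for F15E11.15. In the comparisons drawn, srw-85 and E01G4.5 stood alone among their neighbours.

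Likeness over the 71 libraries was measured by Pearson's r in log2(RPKM + 1), as a description, since libraries of a population share source and depth. The genes most like srbc-15 were F56A4.9 (r = 0.990), Y19D10A.7 (r = 0.990) and vps-35 (r = 0.962), and vps-35 ran from 60.2 to 80.8 RPKM in DH4 against 23.6 to 34.9 RPKM elsewhere. F56A4.9 and Y19D10A.7 had nearly equal values, with ratios of 0.932 to 1.17 in DH4 and r = 0.998 over all libraries, so reads may be shared between them and each is uncertain alone. Those most like pqn-60 were the same F56A4.9 (r = 0.902) and Y19D10A.7 (r = 0.900) and then srbc-15 (r = 0.894), in whose place Spearman's rho had cnc-2. Those most like srw-85 were fbxa-156 (r = 0.852), the UDP-glucuronosyltransferase gene ugt-13 (r = 0.836) and cdk-8 (r = 0.768), and with Spearman's rho none of these 3 was among the first 3.

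ugt-13 was also the gene most like Y50D4B.4 (r = 0.813), before ckc-1 (r = 0.803) and the tyrosyl-tRNA synthetase gene yrs-1 (r = 0.793). Its median was 0.451 RPKM in DH2, 10.7 RPKM in DH3, 15.8 RPKM in DH4 and 10.5 RPKM in DH5. The genes most like E01G4.5 were T10D4.6 (r = 0.878), mps-2 (r = 0.874) and Y54F10BM.9 (r = 0.873), of which 1 was also in the first 3 by Spearman's rho. Among the 5 genes themselves, srbc-15 and pqn-60 had r = 0.894, srw-85 and Y50D4B.4 r = 0.708, srw-85 and E01G4.5 r = 0.606, and srbc-15 and srw-85 r = 0.588, and the other 6 pairs lay between −0.05 and 0.37. These values follow the population differences for which the genes were picked.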

How the data were processed

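Poly(A) RNA was sequenced in 71 libraries of 4 populations. The authors deposited RPKM values; BWA 0.5.9 is named in the submitters' processing notes. The genome build, gene models, counting rule and strandedness were not given in the sources used here, so no coordinates are printed. Of 21777 entries, 2643 RIT entries, 11 without a name, 3 repeated identifiers and 37 without any value were left out. The 5 genes, the lists and the alternatives were chosen with earlier results of these data known. Genes named beside the 5 are the 3 most alike by Pearson's r, the nearest 2 neighbours on each side, and list members apart in a comparison; others were named after their values were seen. Reads per library were recovered for the 5 genes from the steps between low values: 97.3% of 789 low genes were whole multiples of 1 read within 0.01. This gives relative depth, and read counts cover counting error only.

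All models were fitted with limma 3.58.1 (R 4.3.3) to log2(RPKM + 1), which understates changes of low genes, for genes with a mean of at least 1 RPKM over the libraries compared. Calls needed a Benjamini-Hochberg adjusted p under 0.05 over all genes tested and 1 log2. Trends (6 to 38 h, 4.5 to 28.5 h at 25C) were fitted beside cosine and sine terms, and cycles beside a natural spline with 3 degrees of freedom, at the period from 4 to 12 h with the highest mean partial R2. Feeding was tested with population as a block; deviations of the 2 libraries of a population correlated across genes with r = 0.331, 0.441 and 0.343. Fits were tested on simulated data. Alternatives were a pseudocount of 0.1, median-of-ratios rescaling, no filter, all time points, a linear trend, periods to 16 h, no block, Spearman's rho, and leaving out each library. Python 3.11.15, NumPy 2.4.6, pandas 2.3.3 and Matplotlib 3.10.9 were used.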

Additional observations from a re-analysis of the deposited data

How the results depend on the processing

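Each mean population difference of a gene above the filter kept its sign under a pseudocount of 0.1, rescaling and, where other times exist, all time points. With a pseudocount of 0.1 the log2 differences grew to 7.08 for srbc-15 and 5.75 for srw-85 in DH4 minus DH2, 4.71 for srw-85 in DH3 minus DH2, −7.84 for srbc-15 and −1.72 for E01G4.5 in DH5 minus DH4, and 4.78 for srw-85 in DH5 minus DH2 at 38 h. At 0 h they were 3.30 for srbc-15 and 5.29 for srw-85 in DH4 minus DH2 and 4.61 for srw-85 in DH3 minus DH2, so the size of a difference from a population near 0 reads depends on that constant. After rescaling, that of srbc-15 in DH4 minus DH2 at 0 h was 2.12. With all time points pqn-60 was no longer apart in DH4 minus DH2, which left 2 genes. Of the 5 genes, the number called for oscillation in DH2 was 1 with a pseudocount of 0.1 and for oscillation in DH4 was 0 with a linear trend, and the number with a trend in DH5 was 2 after rescaling. Without the population block, feeding called 0. The pqn-60 trend, not called, changed sign in DH2 with a pseudocount of 0.1 (−0.0012 log2) and with all time points (−0.48 log2) and in DH3 after rescaling (0.079 log2). Leaving out 1 library at a time called 1 to 2 of the genes for trend in DH2, 0 to 1 for oscillation in DH2, 0 to 1 for oscillation in DH3, 0 to 2 for oscillation in DH4 and 0 to 1 for trend in DH5, and leaving out 1 population called 1 to 2 for feeding. Over such fits the trend of pqn-60 ran from −0.14 to 0.18 log2 in DH2 and from −0.36 to 0.16 log2 in DH3, that of srbc-15 in DH4 from −0.081 to 0.23 log2, and the feeding change of srw-85 from −0.19 to 0.19 log2, none of them called. The cause of these changes was not tested.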
